A study of Drosophila melanogaster with 8 samples.

Results

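The insulin and TOR growth signalling genes InR, chico, Akt1, foxo, gig, Rheb, Tor, S6k and Thor were compared between exosomes released by Drosophila S2 cells and the cells themselves. The 9 genes were chosen by symbol, with all transcripts of a gene summed by its CG identifier, and all 9 were present among the 14012 genes of the deposited table. Akt1 and Tor now have the symbols Akt and mTor. The library kit preserves strand, but the sources used here do not say whether the authors' quantification used it. The genes had 18 of the table's 21081 transcripts.

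Polyadenylated RNA was sequenced in 4 libraries from S2 exosomes and in 4 from S2 cells, each group numbered from 1 to 4. S2 is an embryonic Drosophila line that resembles plasmatocytes, the macrophage-like blood cells of the fly. No genotype, treatment or time point is given for either group, so the source of the RNA is what separates them. Nothing in the labels shows that the libraries of a group came from separate cultures, and the p-values therefore describe the scatter among libraries, part of which may be technical. The test shares this scatter over all genes tested, so an SE or p is not the spread of 1 gene alone.

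Insulin-like peptides bind InR, a receptor tyrosine kinase. The receptor substrate chico recruits a lipid kinase, and the lipid signal activates the kinase Akt1. Akt1 keeps the transcription factor foxo out of the nucleus. A parallel arm controls growth through the TOR kinase. The gig product (TSC2) forms a complex with Tsc1 that switches off the small GTPase Rheb, and active Rheb turns on TOR. TOR phosphorylates S6k, a kinase of ribosomal protein S6, and Thor (4E-BP), which holds back translation when it binds the cap-binding factor eIF4E. In flies, foxo also raises transcription of InR and Thor.

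Values were taken as FPKM, fragments normalised to transcript length and library size, which was inferred from the values and from the software named by the submitters. On that reading, levels of different genes can be set against each other within a library. A library's values summed to between 91304 and 850262 in the exosome group and between 102736 and 1140885 in the cell group, a 12.5-fold range over all 8. A second scale was therefore used for the 9 genes, the per-million value, in which each library's summed FPKM is set to 1000000. Single genes weigh on that scale, since CG41421 took 47.1% of the summed FPKM of cell replicate 4 and CG34335 took 24.7% of that of exosome replicate 4. The steps between low values gave estimates of the fragments that the values were scaled to. These were about 99400, 1950000 and 2170000 in exosome replicates 2, 3 and 4, against about 1970000, 2350000 and 6450000 in cell replicates 2, 3 and 4, and no step was found in either library numbered 1. The values of those 2 libraries may be on another scale than the rest, which bears on every mean and log2 difference that includes them. The search covered a limited range of steps, and the best fit of cell replicate 1, at about 19100000 fragments, lay near the deep end of that range. The missing step there may also reflect greater depth, which was not tested. In exosome replicate 1, 64 of 145 genes (44.1%) with a median of at least 200 FPKM in the other libraries were listed at 0, so a 0 there may be a failed estimate. Over the other 7 libraries that share was at most 1.71%. All 10 plasmatocyte markers exceeded an FPKM of 1 in at least 1 library, with summed per-million values of 96.3 to 642.2 in the exosome libraries and 247.1 to 7066 in the cell libraries. The markers read of other blood cells (4 of 4) and of the germ line (3 of 4, with vas not matched) did not exceed an FPKM of 1 in any library, and those of neurons, muscle and fat body summed to at most 11.01 on the per-million scale in exosomes and 8.94 in the cell libraries.

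Thor was the most abundant of the 9 mRNAs in all 8 libraries. Its FPKM was 3623, 624.5, 171.8 and 518.3 in exosome replicates 1 to 4, against 715.4, 1019, 797.4 and 72.9 in cell replicates 1 to 4. The mean was 1234 ± 1604 FPKM in the exosome libraries and 651.1 ± 406.1 FPKM in cells (SD, n = 4 each), and the groups overlapped. Thor held 80.9% to 98.1% of the summed FPKM of the 9 genes in exosomes and 80.2% to 91.8% in cells. The 98.1% was that of exosome replicate 1, in which InR, Akt1, foxo and Rheb were listed at 0. The other exosome libraries reached at most 91.5%. Among all genes Thor took rank 52, 93, 63 and 110 in the exosome libraries, in order of replicate, against rank 133, 137, 12 and 115 in the cell libraries. Thor's per-million values were 4261, 1880, 1882 and 1224 in exosome RNA, against 980.6, 892.8, 7762 and 659.5 in cell RNA. All 4 exosome values were above those of cell replicates 1, 2 and 4, and cell replicate 3 was above every exosome library. Abundant genes listed at 0 in exosome replicate 1 can raise Thor's rank and per-million value there, which was not tested. The log2 difference on the FPKM scale was 0.56 (SE 1.98, limma adjusted p = 0.932), and it was below 0 without exosome replicate 1, at -0.25, and without cell replicate 4, at -0.32. The per-million difference was 0.51 (SE 0.97, limma adjusted p = 0.804), and 1.31 without cell replicate 3 (limma adjusted p = 0.898), a setting added after the data were seen.

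**Figure D1:**
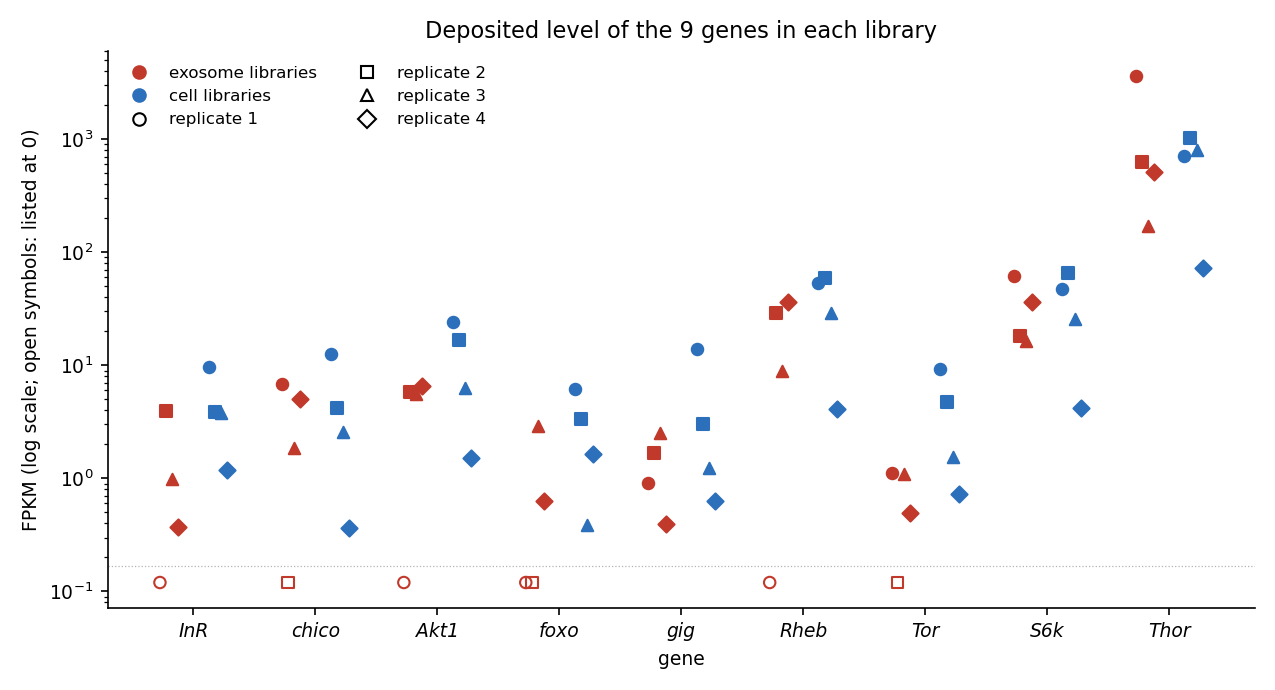
FPKM of the 9 genes on a log axis, 1 symbol per library, exosome libraries (red) left of cell libraries (blue) for each gene, with open symbols below the dotted line for genes listed at 0. Thor lies between 171.8 and 3623 across the exosome libraries and between 72.9 and 1019 across the cell libraries, S6k and Rheb come next, and every 0 is in exosome replicate 1 or 2.

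S6k and Rheb formed the next level and could not be put in order, because each was the higher one in 4 of the 8 libraries. For S6k these include exosome replicate 1, where Rheb was listed at 0, which may be a failed estimate. S6k had 61.5, 18.1, 16.6 and 36.3 FPKM in the exosome libraries, against 47.5, 65.9, 25.8 and 4.24 in the cell libraries, with means of 33.1 ± 20.9 and 35.9 ± 26.7 FPKM (SD, n = 4 each). The per-million values of S6k were 72.3, 54.4, 181.7 and 85.8 in the exosome libraries and 65.1, 57.8, 250.7 and 38.3 in the cell libraries. The highest value of each group was in its replicate 3, and the groups overlapped on both scales. The log2 difference was 0.20 (SE 1.58) on the FPKM scale and 0.19 (SE 0.94) on the per-million scale, with limma adjusted p of 0.968 and 0.934. The FPKM difference of S6k was -0.16 without exosome replicate 1 and -0.57 without cell replicate 4. Within a library, Thor exceeded S6k 58.9-, 34.5-, 10.36- and 14.3-fold in exosomes and 15.06-, 15.4-, 31.0- and 17.2-fold in cells, so this ratio did not separate the groups either.

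Rheb was listed at 0 in exosome replicate 1 and stood at 28.8, 8.99 and 36.7 FPKM in exosome replicates 2 to 4. The cell replicates had 53.1, 59.7, 29.3 and 4.08 FPKM. On the per-million scale the 3 exosome libraries with a value were close together, at 86.6, 98.5 and 86.6, and lay between the cell values of 72.7, 52.3, 285.6 and 36.9. Its log2 difference was -1.37 (SE 1.496, limma adjusted p = 0.766) with exosome replicate 1 included at 0. With that library left out the per-million difference was 0.18 (limma adjusted p = 0.970), against -1.45 with it (limma adjusted p = 0.648). On the FPKM scale the difference without that library was -0.25. The sign of the per-million difference of Rheb therefore rested on exosome replicate 1.

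The kinase gene Akt1 showed the same dependence on that library. It was listed at 0 in exosome replicate 1 and had 5.76, 5.63 and 6.54 FPKM in exosome replicates 2 to 4, against 24.1, 16.6, 6.28 and 1.52 in the cell libraries. In per-million values, exosome replicates 2 to 4 stood at 17.3, 61.7 and 15.4 and the cell replicates at 33.1, 14.6, 61.1 and 13.7. Replicate 3 was the highest in both groups. The per-million log2 difference was -1.17 (SE 1.28, limma adjusted p = 0.676), and 0.01 without exosome replicate 1 (limma adjusted p = 0.998). On the FPKM scale it was -1.15 with that library and -0.45 without it.

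**Figure D2:**
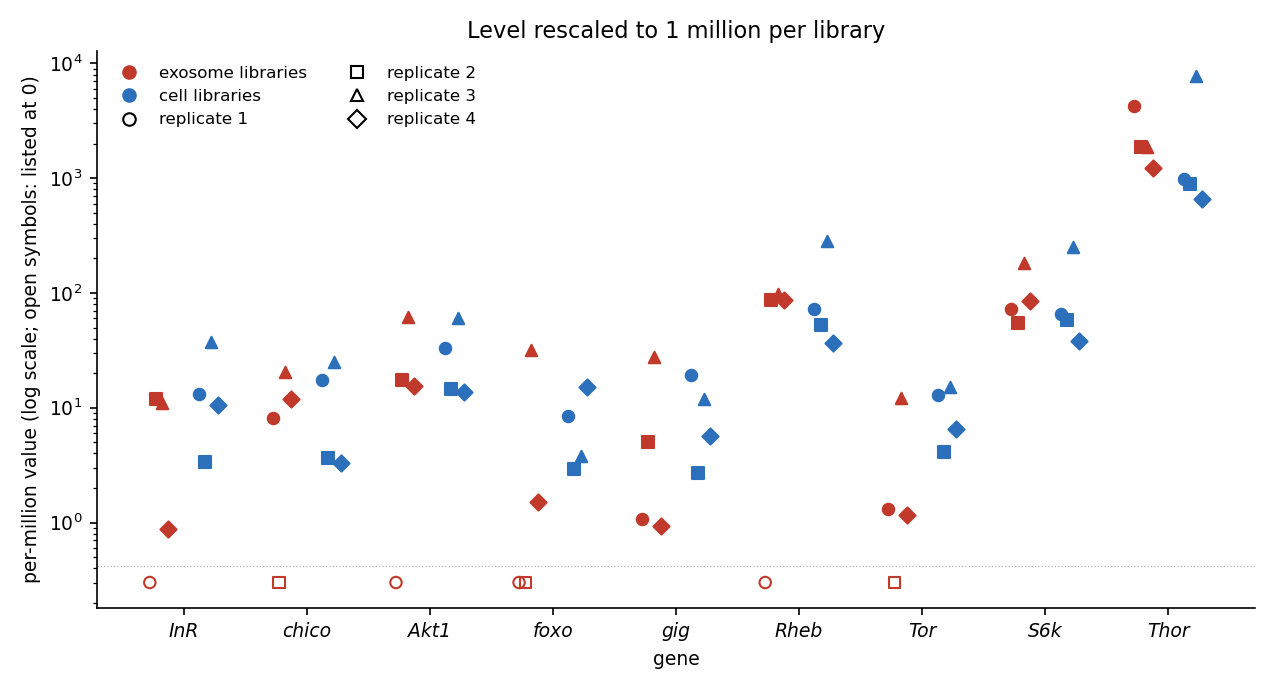
Levels of the 9 genes after each library's summed FPKM was set to 1000000, on a log axis, exosome libraries (red) left of cell libraries (blue), with open symbols for genes listed at 0. Replicate 3 (triangles) is the highest cell library for Thor, S6k and Rheb, at 7762, 250.7 and 285.6, and the highest exosome library for foxo, gig and Tor, at 32.1, 27.5 and 12.04.

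The receptor InR and its substrate chico were low in both groups. InR was listed at 0 in exosome replicate 1 and had 3.96, 0.997 and 0.369 FPKM in exosome replicates 2 to 4, against 9.69, 3.84, 3.81 and 1.18 in the cell libraries. Exosome replicate 2, the shallowest of the 6 libraries with an estimate, was the only exosome library within the range of the cells, and its value rested on about 4 fragments. The log2 difference of InR was -1.33 (SE 0.99, limma adjusted p = 0.709) on the FPKM scale and -1.65 (SE 1.22, limma adjusted p = 0.613) on the per-million scale. Its per-million values were 0, 11.9, 10.9 and 0.871 in exosome replicates 1 to 4, against 13.3, 3.37, 37.1 and 10.6 in the cell libraries, and these overlapped. InR was below 0 in all 26 alternatives in which it was tested, as were most genes on the FPKM and per-million scales. The size of its difference ran from -2.46 to -0.30. Dropping the filter or adding a replicate block cannot change a log2 difference here, so those alternatives say nothing about its sign. InR exceeded an FPKM of 1 in 1 exosome library and in 4 cell libraries, so the cell libraries alone carried it through the filter. chico had 6.88, 0, 1.87 and 5.02 FPKM in the exosome libraries and 12.7, 4.17, 2.59 and 0.367 in the cell libraries. Its per-million values were 8.09, 0, 20.5 and 11.8 in the exosome libraries, against 17.4, 3.65, 25.2 and 3.32 in the cell libraries. The chico groups overlapped on both scales. For chico the log2 difference was -0.34 (SE 1.12, limma adjusted p = 0.928), and it was 0.25 without exosome replicate 2, in which chico is listed at 0 (limma adjusted p = 0.9999). The per-million difference of chico was -0.49 (SE 1.24, limma adjusted p = 0.860).

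The transcription factor gene foxo was listed at 0 in exosome replicates 1 and 2. It had 2.93 and 0.633 FPKM in exosome replicates 3 and 4, against 6.18, 3.33, 0.391 and 1.66 in the cell libraries. Its per-million value of 32.1 in exosome replicate 3 was the highest of all 8 libraries and stood on about 19 fragments, whereas exosome replicate 4 had 1.49 and the cells 8.47, 2.92, 3.80 and 15.02. The groups overlapped on both scales, and foxo had a log2 difference of -1.04 (SE 0.81, limma adjusted p = 0.714) on the FPKM scale and of -1.28 (SE 1.21, limma adjusted p = 0.647) on the per-million scale.

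The kinase gene Tor and its inhibitor gene gig were also at low levels. Tor had 1.11, 0, 1.10 and 0.496 FPKM in the exosome libraries, against 9.38, 4.71, 1.56 and 0.723 in the cell libraries. The highest exosome value was above 1 cell value, that of cell replicate 4. The per-million values of Tor were 1.30, 0, 12.04 and 1.17 in the exosome libraries, against 12.9, 4.13, 15.1 and 6.54 in the cell libraries, where exosome replicate 3 lay within the range of the cells. Tor had a log2 difference of -1.33 (SE 0.88, limma adjusted p = 0.708), and of -1.73 without cell replicate 4 (limma adjusted p = 0.231). Its per-million difference was -1.76 (SE 1.09, limma adjusted p = 0.607), and -2.50 without exosome replicate 3 (limma adjusted p = 0.179). gig had 0.906, 1.68, 2.51 and 0.392 FPKM in exosomes, with a mean of 1.37 ± 0.926, against 14.01, 3.05, 1.24 and 0.627 in the cell libraries, with a mean of 4.73 ± 6.27 (SD, n = 4 each). Its per-million values were 1.07, 5.05, 27.5 and 0.926 in the exosome libraries, against 19.2, 2.68, 12.03 and 5.68 in the cell libraries. The highest cell FPKM was in replicate 1, and the gig groups overlapped, with a log2 difference of -0.79 (SE 0.97, limma adjusted p = 0.786) that was -0.13 without cell replicate 1. The per-million difference of gig was -0.81 (SE 1.18, limma adjusted p = 0.750) and ran from -1.63 to -0.34 with each library left out. Among InR, chico, foxo, Tor and gig the order of levels changed from library to library in both groups.

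Few fragments stood behind these values, above all in exosome replicate 2. Over the 9 genes together about 50.06, 442.4 and 938.3 fragments were estimated in exosome replicates 2, 3 and 4, against 2013, 1421 and 537.3 in cell replicates 2, 3 and 4. Without Thor the estimates were 15.6, 256.4 and 426.0 in the exosome libraries and 897.6, 473.8 and 323.5 in the cell libraries. In exosome replicate 2 the rounded estimates were 34 fragments for Thor, 6 for S6k, 4 for InR, 3 for Rheb, 2 for Akt1 and 1 for gig. In this library a count of 0 allows up to 9.96 FPKM for chico, 3.88 for Tor and 9.01 for transcript RC of foxo, taking 3 fragments as the limit. These limits cover counting error only. They lie above the FPKM of chico in 3 of the 4 cell libraries, of Tor in cell replicates 3 and 4 and of foxo in all 4. On the FPKM scale a difference from those libraries was therefore not detectable at this depth. Library sums differ, so the libraries that lie under a limit can change on the per-million scale. The number of genes above 0 was 4675, 3145, 6823 and 7188 in exosome replicates 1 to 4, against 9735, 8149, 7207 and 7042 in cell replicates 1 to 4. The part of depth and of the genes listed in the differences was not tested.

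The deposited transcripts divided 4 of the genes in different ways between libraries. Of Akt1, transcript RC held all of the gene's FPKM in exosome replicates 2 and 3, on about 2 and 38 fragments, and RA all of it in exosome replicate 4, on about 48. In cell replicates 1 to 4, RA held 82.3%, 79.3%, 82.4% and 100%. Transcript RA thus led in 1 of the 3 exosome libraries with a value and in all 4 cell libraries, a difference that was not tested. Rheb RA held 100%, 86.7% and 59.9% in exosome replicates 2 to 4, against 58.9% in cell replicate 1 and 100% in cell replicates 2 to 4. InR was listed as RC alone in exosome replicates 2 and 4, as RA and RB in exosome replicate 3 and cell replicates 2 to 4, and as all 3 in cell replicate 1. foxo was RC alone in exosome replicate 3 and in cell replicates 3 and 4, RB alone in exosome replicate 4, and a mixture in cell replicates 1 and 2. The foxo transcripts RA, RD and RE and InR RD were listed at 0 in every library. Transcripts of a gene share most of their sequence, so the authors' assignment of a few fragments between them is uncertain.

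**Figure D3:**
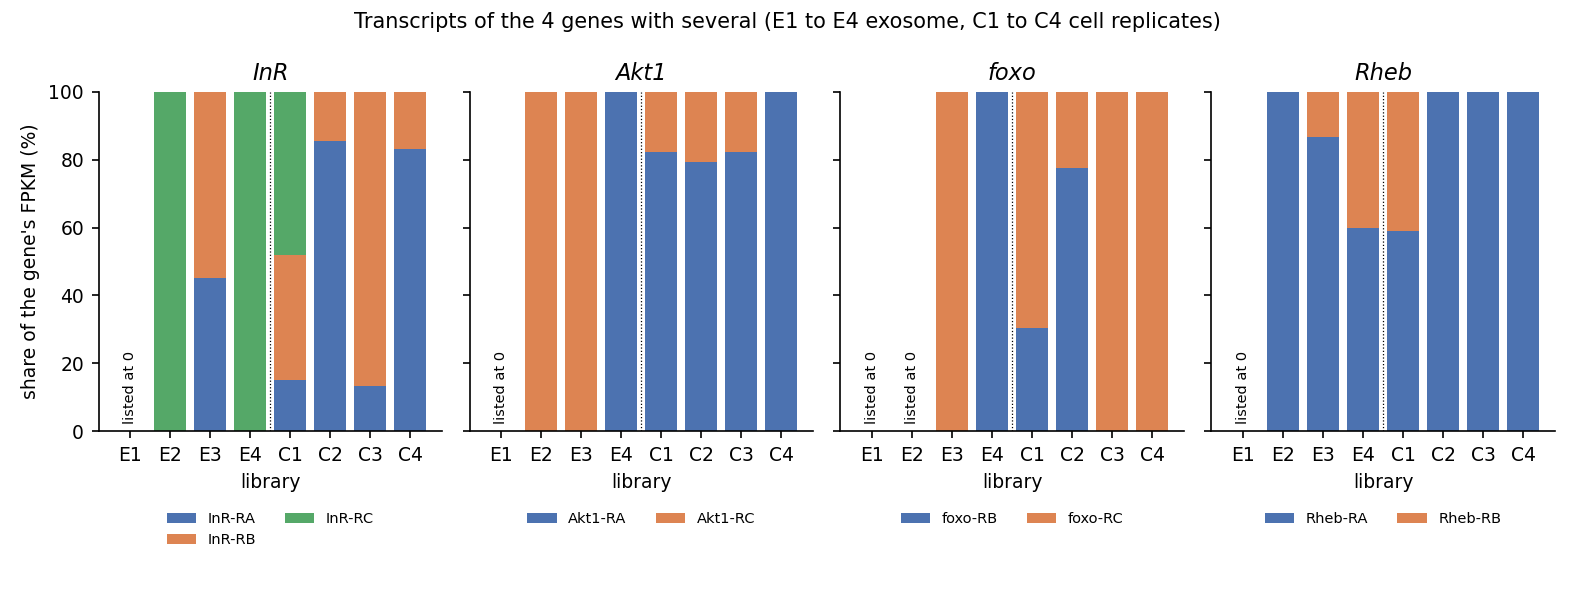
Share of each gene's FPKM held by each deposited transcript, in percent, in the exosome replicates (E1 to E4, left of the dotted line) and cell replicates (C1 to C4), for the 4 genes with more than 1 transcript. Akt1 RA holds at least 79.3% in every cell library and RC all of the gene in E2 and E3.

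All 9 genes passed the filter on low values, an FPKM above 1 in at least 4 libraries, and 5 of them (InR, Akt1, S6k, Thor and Rheb) were above 1 in all 4 cell libraries. Of the exosome libraries, 4 were above 1 for S6k and Thor and 3 for chico, Akt1 and Rheb. Only 2 were above 1 for Tor and gig, and 1 for InR and foxo. Low genes can thus pass mainly through the cell libraries, which bears on the counts of differences below 0 and was not tested. In the fit across all 5868 genes that passed, limma called 0 of the 9 higher and 0 lower in exosomes at an adjusted p of 0.05, against a background of 0% of all genes in each direction. At an unadjusted p under 0.05 it again took 0 of the 9, against 0.0852% of all genes higher and 4.62% lower. In 0 of the 9 did all exosome libraries lie above or below all cell libraries, against 0.0341% of all genes above and 0.75% below. The per-million values gave the same count of 0 of the 9, against 0.102% of all genes higher and 5.69% lower by unadjusted p, and 0.17% above and 2.83% below by non-overlap. Quantile-normalised values gave 0 of the 9 too, against 3.51% higher and 2.66% lower by unadjusted p, and 2.51% above and 2.06% below by non-overlap. Differences below 0 were found in 7 of the 9 genes, against 85.7% of all genes, and again in 7 on the per-million scale, against 83.9%. Their median FPKM log2 difference was -1.04, against -1.01 over all genes tested, and -1.17 against -1.19 on the per-million scale. S6k and Thor were the 2 with a difference above 0, and they stood at percentiles 89.6 and 95.4 of the differences of all genes. Without both libraries numbered 1 their percentiles were 74.9 and 67.4, and the difference of Thor was -0.03. After quantile normalization, where the median of all genes was 0.11, the same genes stood at percentiles 77.3 and 65.5, and 2 of the 9 (InR and Rheb) lay below 0, against 44% of all genes. The 95% intervals were wide, from -3.33 to 4.45 for Thor and from -3.27 to 0.61 for InR on the FPKM scale, so differences of several-fold in either direction were not resolved for Thor. These FPKM intervals rest on the spread of all tested genes at similar levels.

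**Figure D4:**
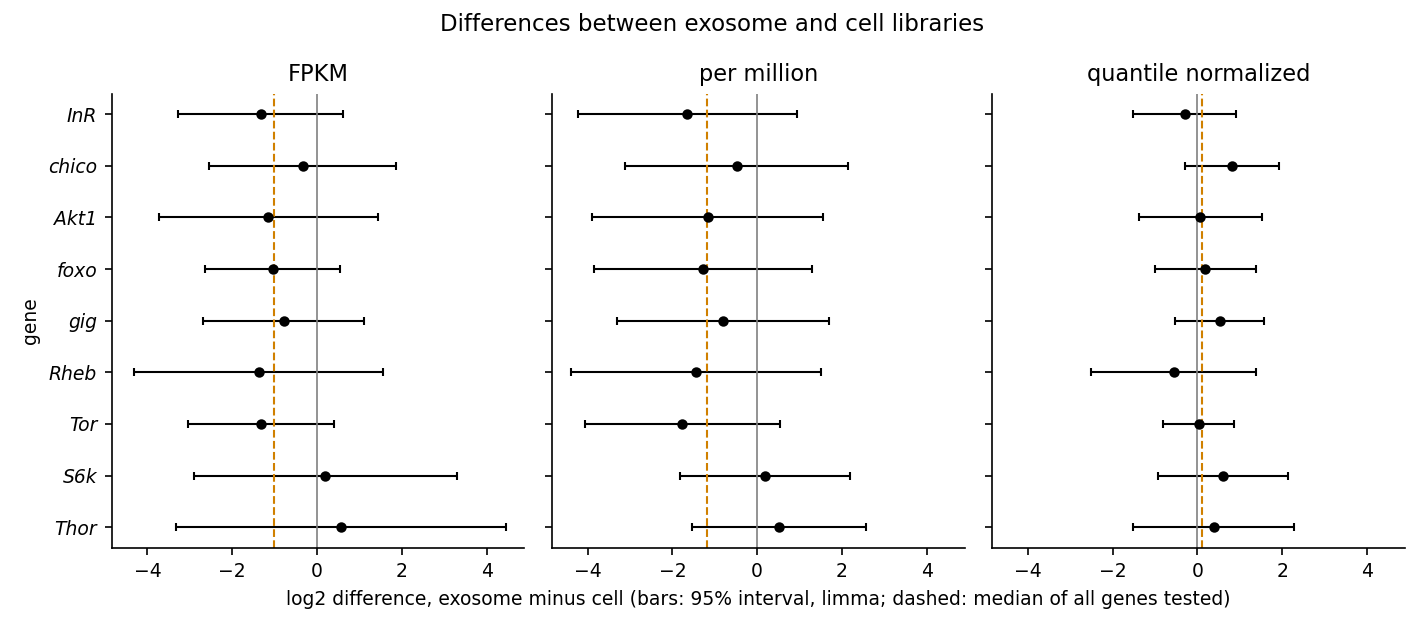
Log2 differences, exosome minus cell, of the 9 genes with 95% intervals from limma, on the FPKM scale, on the per-million scale and after quantile normalization. Every interval includes 0, and the dashed line is the median of all 5868 genes tested, at -1.01, -1.19 and 0.11.

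Other genes of the pathway were read in 6 lists. Of 69 symbols 68 were matched and 57 passed the filter, and limma called 0 higher and 0 lower over all genes. Before adjustment, p was under 0.05 for 0 genes higher in exosomes and for 2 of the 57 lower, Ilp6 and Lkb1, against 0.0852% of all genes higher and 4.62% lower. On the per-million scale it was under 0.05 for 1 lower, Ilp6, against 5.69% of all genes. On the FPKM scale 28 of the 57 differences lay above the median of all genes.

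Of the 10 genes for insulin-like peptides and proteins that bind them, 6 were listed at 0 in all 8 libraries, among them Ilp2 and Ilp3, peptides made by insulin-producing neurons of the fly brain. Ilp5 and Ilp8 each appeared in 1 library, Ilp8 at 0.757 FPKM in exosome replicate 3 and Ilp5 at 0.438 FPKM in cell replicate 1. Only 2 of the 10, ImpL2 and Ilp6, passed the filter and were tested. ImpL2, a secreted protein that binds insulin-like peptides and limits their action, had 564.1, 42.1, 20.01 and 102.6 FPKM in the exosome libraries, against 359.9, 515.7, 215.9 and 34.4 in the cell libraries. It had a log2 difference of -1.19 (SE 1.81, limma adjusted p = 0.824), and the groups overlapped. Ilp6, a peptide made mainly by the fat body in flies, was listed at 0 in exosome replicates 1 to 3 and had 7.57 FPKM in exosome replicate 4, against 92.6, 14.6, 3.23 and 0.216 in the cell libraries (log2 difference -2.44, SE 1.14, limma adjusted p = 0.708). S2 cells thus listed 1 insulin-like peptide above an FPKM of 1, and cell replicate 4 was below the other 3 of its group and below exosome replicate 4.

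The relay from the receptor to Akt1 had 8 of 9 genes tested, with a median log2 difference of -1.19 and 0 called. The adaptor drk had 5.64, 12.1, 8.53 and 14.9 FPKM in the exosome libraries and 18.1, 35.7, 7.67 and 3.24 in the cell libraries. Pi3K92E, the catalytic subunit of the lipid kinase, had 0, 14.5, 5.98 and 4.78 in exosome RNA and 25.9, 19.2, 4.12 and 2.20 in cell RNA. step, a guanine nucleotide exchange factor of Arf GTPases, had 4.00, 0, 3.85 and 7.70 across the exosome libraries and 22.6, 14.9, 4.11 and 1.03 across the cell libraries. All 3 overlapped between groups, with limma adjusted p from 0.786 to 0.961.

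Of the 4 TOR complex genes matched 3 were tested, with a median log2 difference of -0.32. Lst8, a subunit of both TOR complexes, had 0, 19.3, 2.62 and 13.8 FPKM in the exosome libraries and 15.3, 18.7, 1.96 and 1.04 in the cell libraries. The scaffold rictor had 0, 0, 2.09 and 0.727 in the exosome libraries and 13.7, 6.37, 1.96 and 1.21 in the cell libraries, and Sin1, its partner, 3.71, 0, 1.96 and 2.12 in the exosome libraries and 4.79, 6.60, 0.477 and 0.623 in the cell libraries. rictor had the lowest limma adjusted p of the 3, 0.708, with a log2 difference of -1.76 (SE 0.94). raptor, the scaffold of the complex that acts on S6k and Thor, did not pass the filter, so the median of this list leaves it out. It had 0, 0, 0.549 and 0 FPKM in the exosome libraries and 11.9, 2.15, 1.11 and 0.267 in the cell libraries.

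All 10 genes that act on the TSC complex or Rheb were tested, with a median log2 difference of -1.11. The 14-3-3 proteins bind phosphorylated partners such as foxo. 14-3-3zeta had 431.5, 199.5, 33.8 and 202.5 FPKM in the exosome libraries, against 366.0, 381.8, 39.4 and 20.6 in the cell libraries. 14-3-3epsilon was listed at 0 in exosome replicate 1 and had 94.01, 113.0 and 244.5 in the other exosome replicates, against 571.0, 412.4, 120.1 and 27.3 in the cell libraries. scyl, an inhibitor of TOR signalling under hypoxia, had 26.5, 17.6, 17.1 and 19.2 in exosome RNA and 32.9, 90.8, 58.9 and 5.44 in cell RNA. These 3 had limma adjusted p from 0.735 to 0.918. SNF4Agamma, a subunit of the energy-sensing kinase AMPK named after its values were seen, was the 1 pathway gene with every exosome value below every cell value on the FPKM scale, 1 of 57 against 0.75% of all genes. It had 0, 8.99, 13.7 and 15.9 FPKM in the exosome libraries and 72.1, 80.6, 21.9 and 16.6 in the cell libraries (log2 difference -2.48, SE 1.497, limma adjusted p = 0.708). The gap between the groups was 15.9 against 16.6 FPKM, and on the per-million scale the groups overlapped. On that scale the 1 of 57 that stood apart, against 2.83% of all genes, was mnd, an amino acid transporter named after its values were seen, which was lower in exosomes (log2 difference -2.10, SE 1.11, limma adjusted p = 0.607). Lkb1, the kinase that activates AMPK and also named after its values were seen, had 0, 0, 1.20 and 0.687 FPKM in the exosome libraries and 9.45, 9.82, 2.67 and 0.380 in the cell libraries (limma adjusted p = 0.708).

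Amino acid sensing and transport genes had 19 of 20 members tested and a median log2 difference of -0.88, with 12 above the median of all genes. Lamtor3 and Lamtor4 belong to the Ragulator complex, which anchors the Rag GTPases at the lysosome. Lamtor3 had 192.9, 31.3, 7.49 and 69.6 FPKM in the exosome libraries and 83.6, 188.2, 9.72 and 5.63 in the cell libraries. Lamtor4 had 102.6, 0, 14.5 and 55.5 across the exosome libraries and 46.8, 73.8, 2.68 and 4.03 across the cell libraries. Sec13, which serves both the GATOR2 complex and the COPII coat, had 0, 45.6, 9.67 and 35.6 in the exosome libraries and 138.6, 116.4, 16.3 and 6.58 in the cell libraries. The groups overlapped for all 3, with limma adjusted p from 0.739 to 0.982.

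All 15 effectors downstream of TOR were tested, with a median log2 difference of -1.04 and 7 above the median of all genes. RpS6, the ribosomal protein that S6k phosphorylates, was listed at 0 in exosome replicate 1 and had 889.9, 136.5 and 934.2 FPKM in the other exosome replicates. The cells had 3411, 5238, 183.0 and 187.5 FPKM of RpS6, and the log2 difference of -3.10 (SE 1.92, limma adjusted p = 0.708) includes that 0. The elongation factor eEF2 had 2182, 377.2, 196.4 and 452.2 FPKM across the exosome libraries and 2385, 1592, 98.2 and 111.9 in cell RNA, and the helicase eIF4A had 785.8, 292.9, 176.6 and 568.0 in exosome RNA and 1122, 1471, 157.1 and 92.9 in cell RNA. Both had differences near 0, at 0.20 (SE 1.97) and -0.02 (SE 1.95), with limma adjusted p of 0.975 and 0.997. Thor stood above eIF4A in exosome replicates 1 and 2 and in cell replicate 3, and below it in the other 5 libraries.

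**Figure D5:**
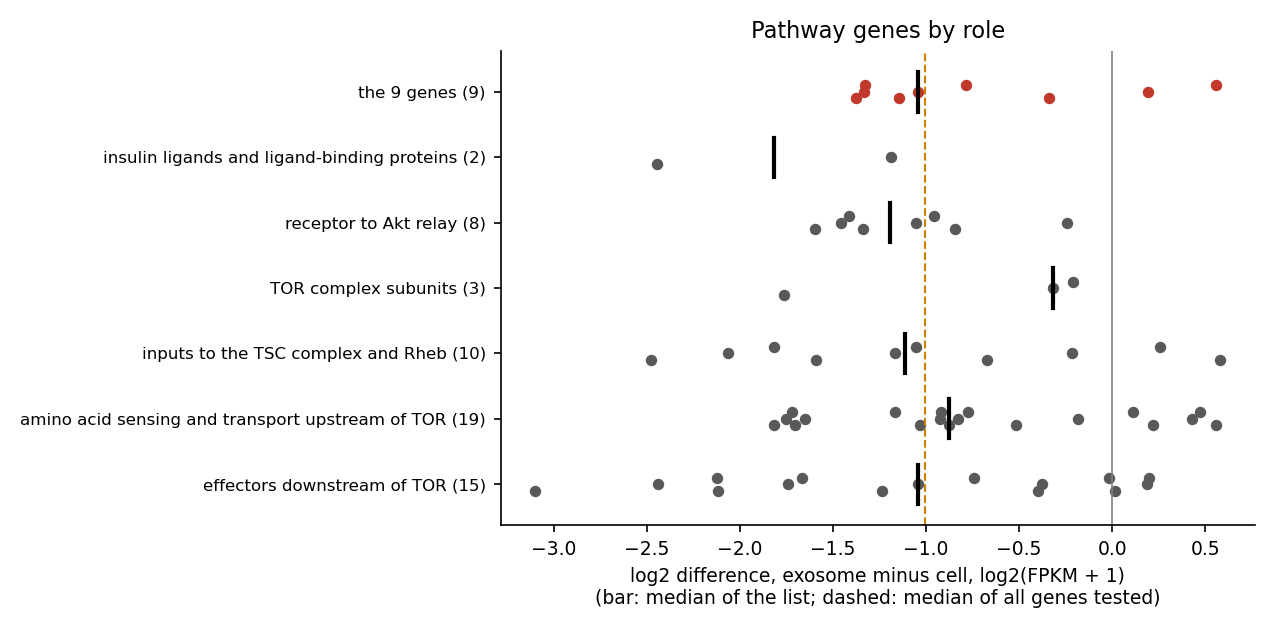
Log2 differences, exosome minus cell, on the log2(FPKM + 1) scale for the 9 genes and for the tested genes of 6 pathway lists, with the number tested in brackets. Short bars are medians, from -1.82 (ligands and ligand-binding proteins, 2 tested) to -0.32 (TOR complex subunits, 3 tested), around the dashed median of all genes at -1.01.

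The genes whose per-million pattern was most like each of the 9 were taken from all 5868 tested genes by Pearson's r of log2 values over the 8 libraries. They were H for InR (0.989), Rbpn-5 for chico (0.991), atl for Akt1 (0.995), Gapvd1 for foxo (0.966), MED1 for gig (0.990), peg for Rheb (0.993), alpha-Spec for Tor (0.997), Rap1 for S6k (0.956) and COX7B for Thor (0.969). All of them share the libraries and their scaling. H, atl, Gapvd1 and peg were listed at 0 in exosome replicate 1, as were InR, Akt1, foxo and Rheb, and Rbpn-5 was listed at 0 in exosome replicate 2, as was chico. Among the 9 genes themselves the closest pair was Akt1 and Rheb (0.952), both at 0 in exosome replicate 1, and Thor was most like S6k (0.721).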

How the data were processed

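Per the submitters' processing notes, TopHat2, Cufflinks and DESeq2 and genome build dm3 were used; the sources used here give neither versions nor roles. The deposited transcript values were taken as FPKM made by the authors, because they are not whole numbers and Cufflinks writes this unit. Transcripts were summed by CG identifier. Names came from RefSeq Release 6 and transcript lengths from Ensembl BDGP6, and no coordinates are given because the builds differ. Genes that exceeded an FPKM of 1 in 4 or more libraries entered the test, limma 3.58.1 in R 4.3.3 on log2(FPKM + 1) values (moderated test with trend, exosome minus cell, Benjamini-Hochberg over all genes tested, 0.05). The pseudocount of 1 understates changes of low genes. In the reported FPKM fit the SE of a gene came from the trend over all tested genes, not from that gene's own libraries. The procedure was tested on simulated data with less scatter than these libraries show, so that test does not tell what differences could be found here. Depth was estimated from the step between low values of genes with 1 transcript: 75.1% to 89.04% of them lay within 0.15 of a whole fragment in 6 libraries, where evenly spread values give 30%, against 40.2% and 47.8% in exosome and cell replicate 1. The step was fitted to these values. The 9 genes and the lists were chosen with earlier results of these data known. Named pathway genes are the 3 with the highest mean FPKM of each list. Outside that rule, Ilp2, Ilp3, Ilp5, raptor, SNF4Agamma, mnd and Lkb1 were named too, the last 3 after their values were seen. Of the value columns of the gene table, 0 were left unmapped. Of the pathway genes, 1 is not reported here.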

Additional observations from a re-analysis of the deposited data

Results flagged for a closer look

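Among 36 sets of 4 values (each gene in each group, as FPKM and on the per-million scale), 9 had a library far from the other 3, by a criterion that flags about 1 in 20 sets of independent, normally distributed values. These sets are skewed and share libraries, and each gene enters on both scales, so the count cannot be set against that rate. In exosome replicate 1, Thor was far above the rest at 3623 FPKM, while Akt1 at 0 FPKM and Rheb at 0 on the per-million scale were far below. In exosome replicate 3 the per-million values of foxo (32.1), Tor (12.04) and gig (27.5) were far above the other exosome libraries. In cell replicate 3 those of S6k (250.7), Thor (7762) and Rheb (285.6) were far above the other cell libraries. The 2 libraries numbered 3 have the lowest summed FPKM of their groups, 91304 in exosomes and 102736 in cells, by which their per-million values are divided. The part of this scaling in the high values was not tested.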

How the results depend on the processing

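The count of genes called by limma, and of the 9 genes called, was 0 in each direction in all 27 alternatives (0 to 0 when a library was left out). Of all genes, 276 had an unadjusted p under 0.05 in the reported fit, against 32 without both libraries numbered 1, 65 without cell replicate 2 and 1215 without cell replicate 4. On the per-million scale the count was 340, and 1255 without exosome replicate 3. Tor was among the 1215 and among the 1255. The median log2 difference of the 9 genes, -1.04 as reported, moved to 0.19 with quantile normalization and to 0.20 with an FPKM above 10 required (3 genes left). Without both libraries numbered 1, foxo and Tor did not pass the filter. The median of the 7 genes left was -0.0333, against -0.43 over all genes tested. On the per-million scale it was 0.0183, against -0.48. With each library left out, the median of those of the 9 genes that passed the filter ran from -1.46 to -0.41. On the per-million scale it ran from -1.81 to -0.37. With quantile normalization signs turned for chico (0.83), Akt1 (0.0706), foxo (0.19), Tor (0.0293) and gig (0.53). Without both libraries numbered 1 they turned for Akt1 (0.0229), Thor (-0.0333) and Rheb (0.0869), and on the per-million scale for Akt1 (0.14), Thor (-0.0266), Rheb (0.13) and gig (0.0183). With each library left out, differences ran from -0.57 to 0.65 for S6k (-0.16 without exosome replicate 1), -0.32 to 1.21 for Thor (-0.25 without exosome replicate 1) and -0.89 to 0.25 for chico (0.22 without cell replicate 1). On the per-million scale they ran from -0.16 to 0.74 for S6k (-0.1484 without cell replicate 4), 0.13 to 1.31 for Thor, -1.02 to 0.45 for chico, -1.98 to 0.0141 for Akt1 and -2.04 to 0.18 for Rheb. The causes were not tested. The settings that leave libraries out on the per-million scale were chosen after seeing the data.

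The replicate numbers were not taken as pairs, since the labels do not say whether same-numbered libraries belong together. Deviations of same-numbered libraries correlated at 0.23, 0.19, 0.45 and -0.07 (0.27, 0.16, 0.40 and 0.04 on the per-million scale). Numbers 1 to 3 correlated best with their own number and number 4 with number 2, on both scales. With the replicate block 0 genes were called. The median of the 9 genes stayed at -1.04, since the block cannot change a log2 difference in this balanced design. In limma 168 genes had an unadjusted p under 0.05 with the block, against 276 without it. On the per-million scale the block gave 506, against 340 without it. Exosome replicate 2, at about 99400 fragments, is the shallowest of the 6 libraries with an estimate, and the depth of those numbered 1 is unknown.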
